A study of Saccharomyces cerevisiae with 9 samples.

Results

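Glucose limitation and rapamycin, a pair of treatments that extend the lifespan of budding yeast, were set directly against each other. The comparison took the 3 arrays of cells in 0.5% glucose (CR) and the 3 arrays of cells in 2% glucose with 100 nM rapamycin (RM), 6 of the 9 arrays of the series. Every row of the deposited table entered it, 5716 probe sets for 5667 genes. The other 3 arrays came from cells in 2% glucose without the drug (NR), which serve here as an untreated reference. All groups were biological triplicates of Saccharomyces cerevisiae in the BY4741 background, grown in YPD, a rich medium of yeast extract and peptone, and harvested on day 5 after inoculation. CR and RM therefore differed in the drug and also in the sugar supplied. BY4741 is a haploid laboratory strain of mating type a with LEU2, MET15 and URA3 deleted and HIS3 deleted in part, and these deletions were shared by every group.

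Rapamycin binds the small protein Fpr1, and the complex inhibits TOR complex 1, the kinase that couples nutrient supply to ribosome production, protein synthesis and autophagy. Low glucose acts on yeast through other sensors as well: it lowers Ras and protein kinase A signalling, activates the Snf1 kinase, and shortens the phase in which sugar is fermented to ethanol. Both conditions are known to increase survival in the nondividing state that a batch culture enters when its sugar is used up. The growth state of each culture at harvest was not recorded in the labels.

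The markers of the strain were read first. Probe sets for LEU2, URA3 and MET17 (the MET15 gene) lay between 0.714 and 2.01 on the log2 scale on all 9 arrays, within the lowest 1.94% of genes. HIS3 read 5.38 to 6.83, and since its deletion is partial and the position of its probes is not known here, that reading checks nothing. Mating type genes did not separate cleanly into high a-specific and low alpha-specific ones. Of 7 a-specific genes, MFA1 read 8.35 to 10.7, MFA2 6.72 to 10.3, STE2 6.88 to 8.69, STE6 6.27 to 8.26, AGA2 4.64 to 9.14, BAR1 4.68 to 7.43 and ASG7 3.5 to 5.29. Of 4 alpha-specific genes, MF(ALPHA)1 read 2.32 to 6.62, MF(ALPHA)2 2.75 to 4.42, STE3 4.63 to 6.85 and SAG1 6.69 to 8.28. STE3 was higher under CR (6.78 to 6.85) than under RM (5.72 to 5.79), and SAG1 was the reverse (7.14 to 7.17 against 7.70 to 8.28). Of 5 sporulation genes, NDT80, the master regulator, stayed between 4.38 and 4.76, but IME1 read 6.23 to 6.24 under CR and 7.54 to 9.09 under RM, SPS4 5.74 to 5.85 and 6.87 to 7.24, DIT1 3.59 to 4.10 and 6.24 to 6.48, and SMK1 4.33 to 4.86 and 3.93 to 4.31. The part of these markers in the results was not tested. Replicate arrays correlated across genes (Pearson) at 0.997 to 0.998 within CR and 0.980 to 0.995 within RM, against 0.875 to 0.893 between a CR and an RM array. The NR arrays were less alike (0.928 to 0.977). Standard deviations around the group mean were 0.343, 0.254 and 0.432 log2 units for NR replicates 1, 2 and 3. They were 0.123 to 0.240 for the RM arrays and 0.0763 to 0.0853 for the CR arrays. Without NR replicate 3, the highest of these, the count of called genes was 1487, against 1465 with it. Arrays measure the share of a transcript in the RNA, so fewer cells and less RNA per cell cannot be told apart in these cultures.

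Many genes across the yeast genome separated the 2 treatments. A gene was called when limma gave a Benjamini-Hochberg adjusted p under 0.05 and the group means differed by 2-fold or more. All 9 arrays entered the estimate of spread. Genes varied most among the NR arrays, with a median standard deviation of 0.294 log2 units, against 0.161 in RM and 0.0553 in CR. An SE or a missed call therefore reflects NR scatter as well as the 2 treatments compared. In all, 1465 of 5667 genes (25.9%) were called, 720 (12.7%) higher under CR and 745 (13.1%) lower under CR than under RM. The 3 CR arrays lay wholly above or wholly below the 3 RM arrays in each of the 1465, and they did so in 4300 genes (75.9%) of all tested. The adjusted p alone was under 0.05 in 3177 genes (56.1%). The larger differences ran mostly one way: 206 genes were at least 4-fold lower under CR and 65 at least 4-fold higher, and the counts at 8-fold were 47 and 8. The typical gene differed by 1.48-fold in either direction, and the typical 95% confidence interval reached 1.31-fold to each side of the estimate. The plot of CR against RM means shows both wings of called genes outside the 2-fold lines.

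**Figure D1:**
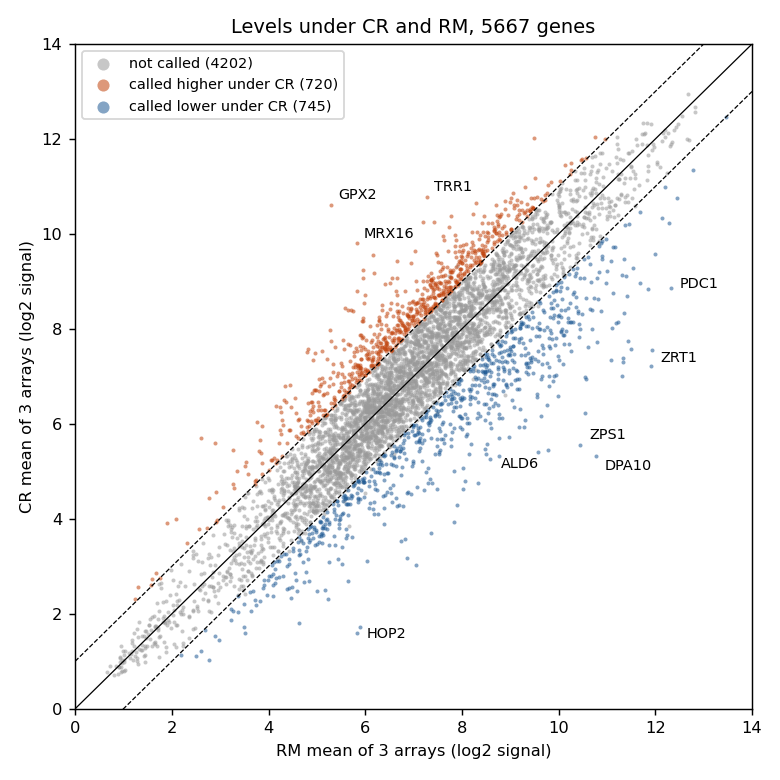
Mean log2 signal of 3 CR arrays (vertical axis) against 3 RM arrays (horizontal axis) for 5667 genes; the solid line marks equality and the dashed lines 2-fold. The 720 genes called higher under CR lie above the upper line and the 745 called lower lie below the lower one, with GPX2 and DPA10 farthest from equality on either side.

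Set beside untreated cells, the RM mean was nearer NR than the CR mean was in most called genes. It was nearer in 679 of those called higher (94.3%) and 650 of those called lower (87.2%). Of the 720 genes called higher under CR, 513 (71.2%) had an RM mean within 0.5 log2 units of the NR mean and a CR mean outside it, and 22 (3.06%) had the reverse. Among the 745 called lower, 342 (45.9%) had only the RM mean that near to NR, 57 (7.65%) had only the CR mean, and in 346 (46.4%) neither lay that near. With NR replicate 3 left out, RM alone was that near for 525 of the genes called higher and 418 of those called lower, and neither was for 279 of those called lower. These positions are descriptions, since the CR and RM distances from NR rest on the same 3 untreated arrays.

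The gene most raised under CR relative to RM was GPX2, which encodes a glutathione peroxidase that reduces hydroperoxides. It read 10.42, 10.79 and 10.64 on the CR arrays, 5.23, 5.26 and 5.39 under RM, and 5.20, 5.16 and 5.10 in NR. All CR arrays were thus far above every other array, and the CR to RM difference was 5.32 ± 0.12 log2 units, a 39.98-fold difference (adjusted p = 3.15e-08). The value after ± is the SE, here and below, with n = 3 arrays per group and the spread pooled over all 9 arrays. TRR1, the cytoplasmic thioredoxin reductase, followed with 10.69, 10.86 and 10.80 under CR and 7.37, 7.26 and 7.20 under RM. That is an 11.4-fold difference (3.51 ± 0.17 log2 units, adjusted p = 8.28e-07). SRX1, the sulfiredoxin that restores oxidised peroxiredoxins, read 9.41, 9.65 and 9.61 against 6.20, 6.25 and 6.03, a 10.5-fold difference (adjusted p = 1.43e-05). GPX2, TRR1 and SRX1, all of the peroxide and thiol system, made up 3 of the 4 largest increases. MRX16, the remaining one of the 4, read 9.67, 9.88 and 9.87 under CR and 5.76, 5.85 and 5.85 under RM (15.9-fold). The next 8 included nuclear genes of different machines. CNM67, a spindle pole body protein, read 9.31, 9.10 and 9.30 against 6.14, 5.51 and 6.19 (9.78-fold). SWI1, a subunit of the SWI/SNF chromatin remodeller, read 9.19, 9.02 and 9.0 against 6.0, 5.71 and 6.13 (8.69-fold). RSC3, of the RSC remodeller, was 7.84-fold higher, and ALG7, which performs the first step of N-glycan assembly, 7.29-fold higher. ECM23, YLR108C, OSW7 (an outer spore wall gene) and YOR019W completed the 12, at 8.57-fold, 8.43-fold, 7.93-fold and 7.10-fold.

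At the other end stood DPA10, at 5.33, 5.28 and 5.38 under CR and 10.75, 10.54 and 11.03 under RM. Untreated cells gave 10.63, 10.32 and 10.92, so only the CR arrays were low, with a difference of -5.44 ± 0.18 log2 units from RM (43.4-fold, adjusted p = 2.1e-07). CR was also by far the lowest group for ALD6, the cytosolic acetaldehyde dehydrogenase that makes acetate. ALD6 read 5.50, 5.52 and 5.35 under CR, 10.01, 9.13 and 10.22 under RM, and 10.35, 10.51 and 11.42 in NR. It was 20.1-fold lower under CR than under RM, and its RM mean lay -0.97 log2 units from NR. MLS1, malate synthase of the glyoxylate cycle, read 6.20, 6.25 and 6.26 under CR and 10.38, 11.07 and 10.19 under RM (19.9-fold). GPP1, a glycerol-3-phosphatase, read 7.05, 7.0 and 6.99 against 11.50, 11.12 and 11.33 (19.8-fold). For each of these 4 genes, the lowest RM array lay more than 8-fold above the highest CR array. HOP2, a meiotic gene for homologous pairing, was under CR no brighter than the deleted genes, whose highest reading was 2.01, so its fold is a lower bound taken against that reading, a floor chosen after the data were seen. It stood at 1.85, 1.63 and 1.35 against 5.64, 6.22 and 5.64 (at least 14.2-fold). The low-affinity hexose transporter gene HXT3 read 5.22, 5.48 and 5.49 against 9.62, 9.99 and 9.10 (18.1-fold). HSP30, a stress protein of the plasma membrane that restrains the proton pump, read 7.23, 7.13 and 7.54 against 11.16, 11.37 and 11.48 (16.5-fold). AQR1, a transporter of drugs and short-chain acids, was 16.3-fold lower. YGR035C read 1.66, 2.09 and 1.45 under CR, with 2 of 3 arrays at or below that reading, so it was at least 14.5-fold lower. Its RM arrays were scattered, at 5.28, 7.61 and 4.82. ZPS1, ZRT1 and YDL218W complete the 12 and are described with the genes they belong to below.

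**Figure D2:**
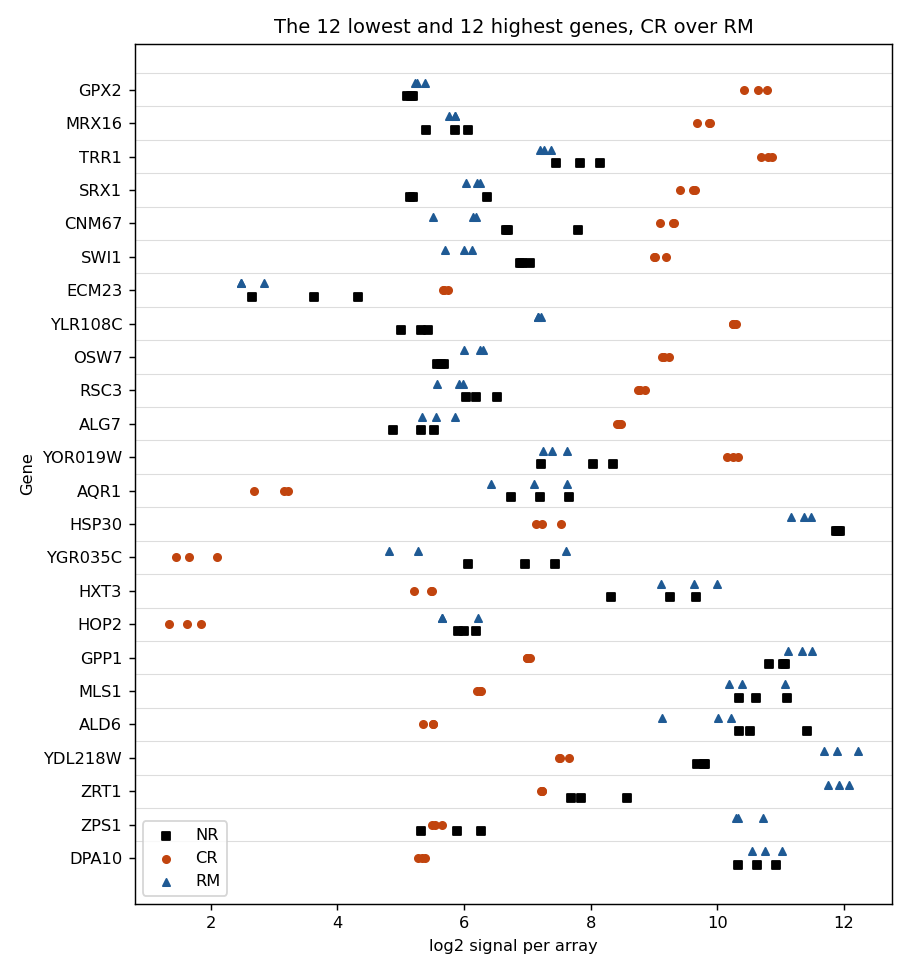
Log2 signal of each array for the 12 genes with the largest CR to RM difference in each direction; each point is 1 array, coloured by group (NR, CR, RM). Separation of the CR from the RM arrays was a condition of choosing these 24 genes. For GPX2 and DPA10 the NR points lie beside RM.

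The zinc transporter genes ZRT1 and ZRT2 were lower under CR than under RM, and RM was the treatment farther from untreated cells. Zap1 is the activator that switches on zinc transporters when cells are short of the metal. ZRT1, the high-affinity transporter, read 7.23, 7.23 and 7.21 under CR, 12.08, 11.74 and 11.92 under RM, and 8.57, 7.69 and 7.84 in NR. The RM arrays stood above all others, and the difference between treatments was -4.69 ± 0.21 log2 units (25.7-fold lower under CR, adjusted p = 6.51e-07). ZPS1, a zinc-responsive cell surface protein, read 5.49, 5.65 and 5.54 under CR, 10.29, 10.32 and 10.73 under RM, and 5.89, 6.27 and 5.32 in NR (29.5-fold lower under CR than RM). CR and NR arrays of ZPS1 overlapped, and RM was the group apart. ZRT2, the low-affinity transporter, was 8.03-fold lower under CR, and its CR mean differed from NR by -0.05 log2 units. Of 27 measured zinc genes, 13 (48.1%, beside 13.1% of all genes) were lower and 2 higher under CR, and the list's median difference was -0.99 log2 units, against 0.004 over all genes. The median distance from NR was -0.07 log2 units under CR and 0.79 under RM. ZAP1 itself was 2.12-fold lower (-1.08 ± 0.33 log2 units, adjusted p = 0.0197), with 8.33, 8.35 and 8.40 under CR, 9.39, 9.87 and 9.06 under RM, and an untreated range of 7.63 to 9.08. The ZAP1 call was lost without CR replicate 1 or 2 or RM replicate 2, at -0.87 to -1.07 log2 units.

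Glycolysis separated the treatments at nearly every step. Of 17 measured glycolytic genes, 14 (82.4%, beside 13.1% of all genes) were lower under CR than under RM and 0 higher, with a median of -2.02 log2 units. Phosphoglucose isomerase PGI1 read 7.94, 8.09 and 7.96 under CR, 10.64, 10.65 and 10.79 under RM, and 11.05, 10.93 and 11.51 in NR (6.47-fold lower under CR than RM, adjusted p = 2.23e-06). Hexokinase 2, HXK2, which also takes part in glucose repression, read 4.62, 4.73 and 4.59 under CR, 6.71, 6.20 and 6.61 under RM, and 8.54, 9.61 and 10.33 in NR. Both treatments lay below NR for HXK2, and CR lay a further 3.64-fold below RM (adjusted p = 0.00207). Each step from glucose phosphorylation to pyruvate had a called gene, among them PFK1 (4.42-fold), PGK1 (6.23-fold), ENO1 (5.60-fold) and the main pyruvate kinase CDC19 (5.36-fold). The 3 members not called were GLK1, TDH3 and PYK2, at 0.57, -0.56 and -0.82 log2 units. The median distance from NR was -3.17 log2 units under CR and -0.997 under RM.

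Fermentation and acetate genes gave 11 lower (42.3%) and 1 higher (3.85%) of 26, beside 13.1% and 12.7% of all genes (median -0.71). Pyruvate decarboxylase PDC1 read 8.77, 8.96 and 8.86 under CR, 12.31, 12.29 and 12.36 under RM, and 12.07, 11.58 and 12.24 in NR, a 10.97-fold difference between the treatments (adjusted p = 7.87e-07). The isozyme genes PDC5 and PDC6 were 7.55-fold and 10.8-fold lower. ADH1, the main alcohol dehydrogenase, read 11.29, 11.37 and 11.34 under CR and 11.54, 11.48 and 11.59 under RM. The groups did not overlap, but the difference of -0.20 log2 units did not pass limma, whose spread includes the NR arrays (adjusted p = 0.512). Gluconeogenesis and the glyoxylate cycle, which build sugar from ethanol and acetate, had 6 of 16 genes lower (37.5%) and 0 higher (median -0.89). The lower ones included the isocitrate lyase gene ICL1 (7.87-fold) and PCK1 (2.56-fold). Called genes of both the breakdown and the resynthesis of sugar were therefore lower under CR than under RM. Among glucose transporters and sensors 3 of 23 were higher and 3 lower (13.0% each), close to the shares over all genes. HXT3 and HXT7 were 18.1-fold and 2.71-fold lower, and STD1 and GRR1, which act in glucose sensing, 4.70-fold and 3.20-fold higher. HXT7 has a near-identical copy, HXT6, so its probe set may read both.

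Respiratory genes had fewer calls. The TCA cycle list of 19 genes held 3 called lower (15.8%, near the 13.1% of all genes) and 0 called higher (median -0.53). Aconitase ACO1 was 2.40-fold and the succinate dehydrogenase genes SDH3 and SDH4 2.62-fold and 2.13-fold lower. The SDH3 call was lost when any CR replicate, RM replicate 1 or RM replicate 3 was left out, at -1.12 to -1.41 log2 units. Respiratory complexes III and IV and cytochrome c gave 6 of 23 lower (26.1%) and 0 higher (median -0.29). The largest was CYT1, cytochrome c1, at 6.58, 6.60 and 6.60 under CR, 9.93, 10.27 and 9.75 under RM, and 10.42, 10.08 and 10.14 in NR (10.5-fold, adjusted p = 6.51e-07). ATP synthase had 1 of 17 lower (5.88%), and its median distance from NR was alike in size under both treatments, -0.77 for CR and -0.78 for RM. HAP4, the limiting activator subunit for respiratory genes, read 7.76, 7.80 and 7.79 under CR and 9.78, 10.05 and 9.76 under RM (4.24-fold lower, adjusted p = 2.23e-06), while HAP3, a DNA-binding subunit of the same complex, was 2.75-fold higher.

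Ribosomal protein genes held more calls than any other of the 44 lists. The 129 measured genes for cytosolic ribosomal proteins included 110 (85.3%) called lower under CR than under RM and 0 called higher, beside 13.1% lower among all genes. The median was -1.79 log2 units (3.47-fold), and the middle of the list ran from -2.15 (25th percentile) to -1.31 (75th percentile). In 128 of the 129 the estimate was below 0, and 50 were at least 4-fold lower. Both subunits took part, with 46 of 53 small subunit genes and 64 of 76 large subunit and stalk genes lower. Rapamycin is known as an inhibitor of ribosomal protein gene transcription. Here the list's median distance from NR was -0.41 log2 units under RM and -2.11 under CR. RPS21B read 7.02, 7.02 and 6.98 under CR, 9.85, 9.77 and 10.10 under RM, and 10.55, 10.33 and 10.93 in NR (7.45-fold lower, adjusted p = 1.95e-06). RPL38 read 7.33, 7.30 and 7.44 under CR, and its RM arrays, at 11.04, 11.15 and 11.07, lay above its NR arrays, at 10.23, 9.68 and 10.03 (13.3-fold between treatments, adjusted p = 4.81e-07). Many ribosomal protein genes exist as near-identical pairs, and single probe sets may read both copies.

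Lists around the ribosome had medians nearer 0. Ribosome biogenesis genes gave 37 of 132 lower (28.0%, beside 13.1% of all genes) and 0 higher (median -0.55). Among them were the helicase gene DBP2 (12.5-fold), the nucleolar protein gene NSR1 (6.48-fold) and the assembly factor genes PWP1 (5.58-fold) and RRB1 (4.86-fold). Translation factors had 5 of 36 lower and 2 higher, close to the background share for lower calls. HYP2 and ANB1, which encode the initiation and elongation factor eIF5A, were 4.84-fold and, with CR arrays no brighter than the deleted genes, at least 2.78-fold lower. RNA polymerases I and III gave 4 higher (11.4%) and 3 lower (8.57%) of 35, below the 12.7% and 13.1% of all genes. RRN3, which recruits polymerase I to the ribosomal DNA, was 3.39-fold higher under CR and RPO31, the largest subunit of polymerase III, 3.08-fold higher, while RPA43 and RPA49 of polymerase I were 3.08-fold and 2.41-fold lower (RPA49 fell just short of 2-fold without RM replicate 3). Mitochondrial ribosomal proteins gave 3 higher and 3 lower of 74 (4.05% each), with a median of 0.13. In that list the count of higher genes was 5 without RM replicate 2.

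**Figure D3:**
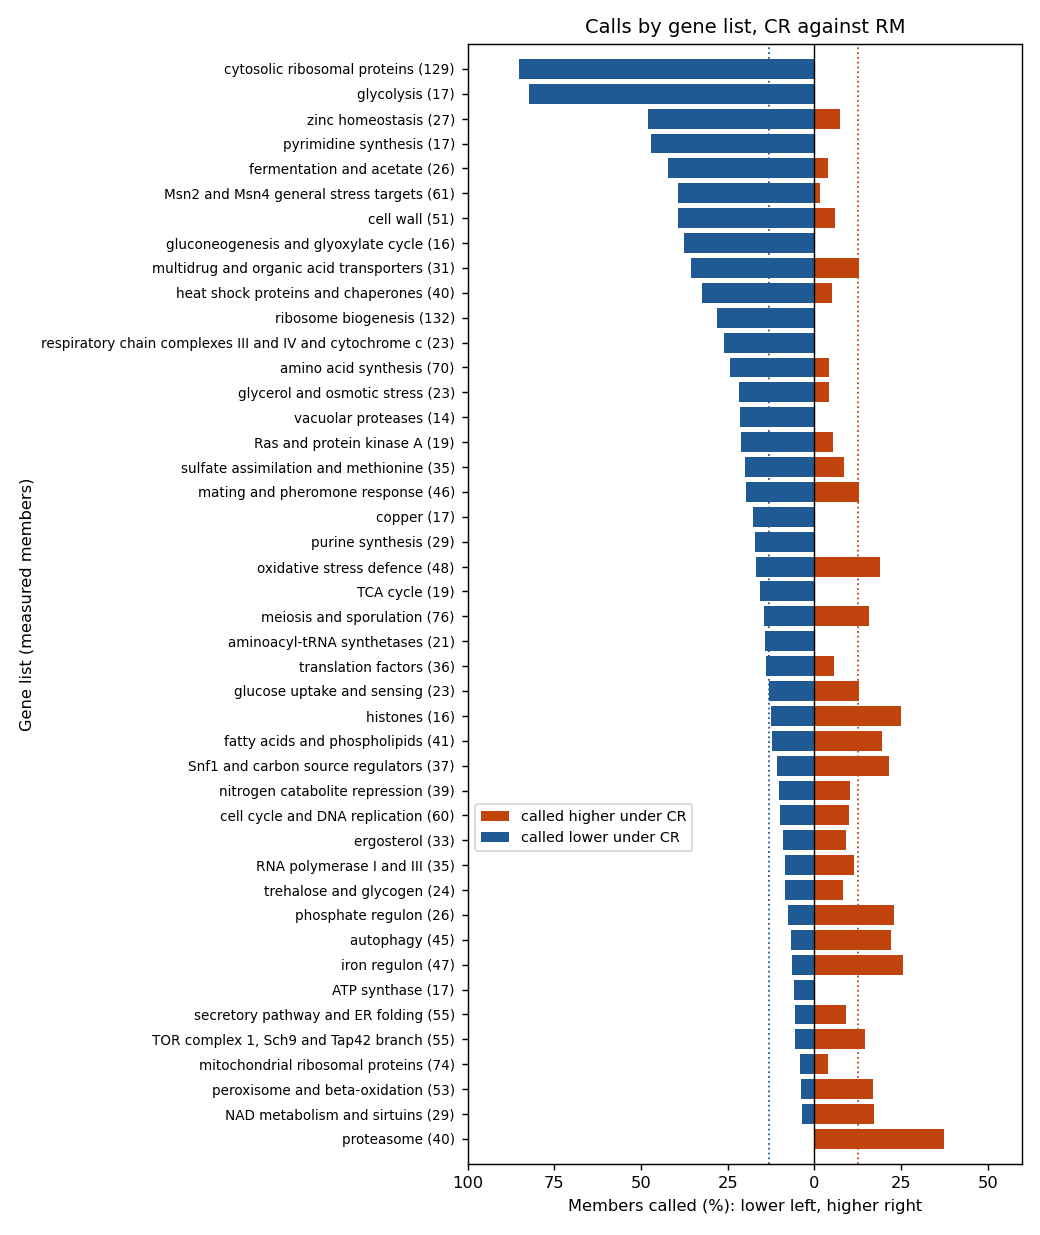
Share of the measured members of 44 gene lists (number in brackets) called lower (bars to the left) and higher (bars to the right) under CR than under RM, in percent; dotted lines mark the shares over all 5667 genes, 13.1% and 12.7%. Cytosolic ribosomal proteins (85.3% lower) and glycolysis lie at the top, and the proteasome (37.5% higher) at the bottom.

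Targets of the general stress response were called lower under CR more often than higher. Msn2 and Msn4 are paired activators of these genes, which TOR complex 1 and protein kinase A normally hold back. Of 61 measured genes, 24 (39.3%, beside 13.1% of all genes) were lower, 1 was higher and 36 were not called (median -0.71), and the median distance from NR was -0.70 log2 units under CR and 0.13 under RM. Beyond HSP30, the lower genes included RTN2 (12.8-fold), the regulator MSN4, SPI1 of the cell wall (8.49-fold) and CTT1, the cytosolic catalase. CTT1 read 8.80, 8.87 and 8.86 under CR, 11.74, 11.93 and 11.87 under RM, and 10.12, 10.90 and 10.84 in NR, so the treatments lay on either side of untreated cells (8.04-fold apart, adjusted p = 3.55e-06). The single member called higher was MSN2 itself, a regulator kept in the list as MSN4 is. MSN2 read 8.78, 8.76 and 8.74 under CR and 7.61, 7.72 and 7.46 under RM (2.23-fold higher), whereas MSN4 read 4.34, 4.25 and 4.29 against 7.88, 8.31 and 7.5 (12.2-fold lower). Trehalose and glycogen genes gave 2 higher and 2 lower of 24 (8.33% each), below the shares over all genes. GDB1 and GPH1, which break glycogen down, were 3.22-fold and 2.96-fold lower.

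Heat shock proteins and chaperones gave 13 lower (32.5%) and 2 higher (5.0%) of 40, beside 13.1% and 12.7% of all genes (median -0.53). HSP82 read 7.78, 7.77 and 7.85 under CR, 9.5, 10.16 and 10.14 under RM, and 11.55, 11.52 and 11.21 in NR, so CR was lowest and RM in between (4.39-fold, adjusted p = 1.82e-05). Its near-identical partner HSC82 was 4.10-fold lower, and the Hsp110 genes SSE1 and SSE2 4.08-fold and 2.27-fold lower. KAR2, the chaperone of the endoplasmic reticulum, went the other way, at 10.21, 10.24 and 10.17 under CR and 8.60, 8.82 and 8.81 under RM (2.76-fold higher, adjusted p = 1.36e-05). KAR2 read 10.10, 10.23 and 10.39 in NR, which places the RM arrays as the group apart. HSF1, the heat shock factor, was at 0.34 log2 units with no call. In the glycerol and osmotic stress list 5 of 23 were lower (21.7%) and 1 higher (4.35%). These included both glycerol-3-phosphatases, GPP1 and GPP2 (7.08-fold), and both glycerol-3-phosphate dehydrogenases, GPD1 (2.01-fold) and GPD2 (6.37-fold), although GPD1 dropped below 2-fold without CR replicate 1 or RM replicate 3, at -0.97 and -0.94 log2 units. The single higher gene was SSK2, a kinase of the osmotic stress pathway (2.92-fold).

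Oxidative stress genes had calls in both directions. Of 48 genes, 9 (18.8%) were higher and 8 (16.7%) lower under CR, beside 12.7% and 13.1% of all genes. The list's median was 0.01. Alongside GPX2, TRR1 and SRX1, the higher genes included OYE3, an NADPH oxidoreductase, at 7.45, 7.53 and 7.61 under CR and 5.07, 5.46 and 4.78 under RM (5.38-fold). YAP1, the transcription factor that responds to peroxides, read 10.40, 10.30 and 10.38 against 8.66, 8.77 and 8.86 (3.02-fold higher, adjusted p = 2.94e-05). The lower genes were led by CTT1 and included OYE2 (3.62-fold), the mitochondrial superoxide dismutase gene SOD2 (2.01-fold, but -0.99 and -0.88 log2 units without CR replicate 1 or RM replicate 3) and the pentose phosphate genes GND1 (3.32-fold) and TAL1 (2.39-fold). Catalase and superoxide dismutase genes were thus not among the higher ones, and SOD1 differed by 0.23 log2 units with no call.

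Proteasome genes were called in 1 direction, higher under CR than under RM. Of 40 measured genes, 15 (37.5%) were higher, 0 lower and 25 not called, against 12.7% higher among all genes, and the median was 0.81 log2 units. The regulatory particle contributed 10 of its 19 measured genes and the core 5 of 14. RPN11, the deubiquitinase of the regulatory particle, read 10.42, 10.36 and 10.38 under CR, 8.77, 8.82 and 8.78 under RM, and 9.28, 9.19 and 8.94 in NR. The 3 groups were fully separated, with NR between the treatments, and CR was 3.03-fold above RM (adjusted p = 6.97e-06). The ATPase gene RPT3 and the core genes PUP3 and PUP2 were 2.85-fold, 2.66-fold and 2.49-fold higher. For the list as a whole the median distance from NR was 0.39 log2 units under CR and -0.44 under RM.

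Autophagy, a process that inhibition of TOR complex 1 is known to start, gave 10 higher and 3 lower of 45 under CR relative to RM (median 0.31). These shares were 22.2% and 6.67%, beside 12.7% and 13.1% of all genes. Both treatments had medians above NR, 0.95 log2 units for CR and 0.46 for RM. ATG1, the kinase that initiates autophagy, read 10.70, 10.63 and 10.71 under CR, 8.87, 9.26 and 8.88 under RM, and 9.60, 9.14 and 8.68 in NR (3.19-fold higher, adjusted p = 0.000168). ATG23 and ATG20 were 3.34-fold and 3.18-fold higher. ATG41, listed with the zinc genes under its older name ICY2, was opposite, at 6.03, 6.18 and 6.18 under CR and 8.83, 8.85 and 8.81 under RM (6.50-fold lower). The count of higher autophagy genes was 5 when arrays were centred on their 75th percentile. Vacuolar proteases had 3 of 14 lower (21.4%), and all 3 were inhibitors of those proteases rather than proteases: PAI3 (3.55-fold), TFS1 (3.11-fold) and PBI2 (2.64-fold).

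Within the TOR pathway itself, 8 of 55 genes (14.5%) were higher and 3 (5.45%) lower, beside 12.7% and 13.1% of all genes. TOR1, the kinase gene, read 6.79, 6.79 and 6.75 under CR and 6.39, 6.48 and 6.65 under RM. The groups did not overlap, but the difference of 0.27 log2 units did not pass the test (adjusted p = 0.247). TOR2 was 2.17-fold higher. SCH9, the kinase that relays TOR complex 1 activity to ribosome production, read 9.67, 9.60 and 9.61 under CR, 7.96, 8.11 and 7.95 under RM, and 7.88, 8.07 and 7.69 in NR (3.07-fold higher, adjusted p = 9.33e-06). NPR1, a kinase held back by TOR complex 1 that regulates nutrient permeases, was 3.09-fold higher. FPR1, the receptor of rapamycin, read 7.58, 7.58 and 7.62 under CR, 9.87, 9.40 and 9.78 under RM, and 9.36, 10.11 and 10.33 in NR. Its RM and NR arrays overlapped, and CR was 4.25-fold lower than RM (adjusted p = 7.47e-05). GTR1, a GTPase that activates TOR complex 1 at the vacuole, was 3.31-fold lower. In all, 5 of the 24 regulators examined were higher (MSN2, AFT2, SNF1, SCH9 and YAP1), 4 were lower (MSN4, ZAP1, HAP4 and FPR1) and 15 were not called.

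The neighbouring glucose pathways showed similar mixtures. Ras and protein kinase A genes gave 4 lower (21.1%) and 1 higher (5.26%) of 19, beside 13.1% and 12.7% of all genes. RAS1 was 3.93-fold lower, ASC1, which dampens the glucose receptor pathway and also sits on the ribosome, 4.24-fold lower, and the phosphodiesterase gene PDE2 2.46-fold lower, while GPB1 was 2.16-fold higher. Snf1 and carbon source regulators gave 8 higher (21.6%) and 4 lower (10.8%) of 37 (median 0.45). The SNF1 kinase gene was 2.06-fold higher, a call that was lost with arrays centred on their median or 75th percentile (0.98 and 0.95 log2 units), and REG1, a subunit of the phosphatase that opposes it, 3.17-fold higher. TYE7, an activator of glycolytic genes, was 7.75-fold lower. The activators of nonfermentative growth CAT8 and ADR1 stood at 0.97 and 0.74 log2 units, short of 2-fold.

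Among biosynthetic routes, pyrimidine synthesis and salvage had the largest share of lower genes, 8 of 17 (47.1%, beside 13.1% of all genes) with 0 higher (median -0.57). URA2, which performs the first steps, read 6.45, 6.29 and 6.22 under CR, 9.19, 9.17 and 9.23 under RM, and 11.35, 11.17 and 12.13 in NR. Both treatments were below NR, and CR was 7.35-fold below RM (adjusted p = 9.16e-06). The cytosine permease FCY2, the cytosine deaminase FCY1 and the CTP synthase URA7 were 7.69-fold, 5.42-fold and 5.72-fold lower. Purine synthesis gave 5 of 29 lower (17.2%) and 0 higher. The count of lower genes fell to between 2 and 3 without CR replicate 2 or 3 or RM replicate 1 or 3. Amino acid synthesis gave 17 of 70 lower (24.3%) and 3 higher (4.29%) (median -0.40). GLN1, glutamine synthetase, read 7.83, 7.75 and 7.60 under CR and 10.87, 10.59 and 10.93 under RM (8.39-fold lower, adjusted p = 1.44e-05), and ILV5, LYS1 and CPA1 were 6.48-fold, 5.37-fold and 5.17-fold lower. GCN4, their general activator, differed by -0.47 log2 units and was not called. In sulfate assimilation and methionine synthesis, 7 of 35 were lower and 3 higher, with the transcription factor MET28 9.42-fold and the methionine synthase MET6 5.23-fold lower and the APS kinase MET14 3.25-fold higher. Aminoacyl-tRNA synthetases had 3 of 21 lower (14.3%, near the 13.1% of all genes) and 0 higher. The number lower was 5 when NR replicate 3 was left out and 7 when RM replicate 2 was.

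Nitrogen catabolite repression, the set of genes that TOR inhibition is known to release, gave 4 higher and 4 lower of 39 (10.3% each). Over all genes these shares were 12.7% and 13.1%. The list's median was -0.14. The 4 lower genes were MEP3, an ammonium permease (4.69-fold), UGA1 of the GABA pathway (4.55-fold), OPT2 (4.36-fold) and the lysine permease LYP1 (3.92-fold). Their RM means lay -0.23, -0.13, -0.28 and 0.01 log2 units from NR, and their CR means -2.46, -2.31, -2.40 and -1.96. The largest upward difference in the list was 1.92 log2 units. The list's median distance from NR was -0.04 log2 units under CR and -0.13 under RM. URE2, the repressor of the pathway, differed by -0.20 log2 units with no call. Multidrug and organic acid transporters gave 11 lower (35.5%) and 4 higher (12.9%) of 31. Beyond AQR1 and YGR035C, the weak acid pump PDR12 was 10.3-fold lower and the polyamine exporter TPO1 7.15-fold lower.

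Among iron and phosphate genes more calls were higher than lower, though most members were not called. The iron list gave 12 higher (25.5%, beside 12.7% of all genes) and 3 lower of 47 (median 0.21). ISU2, a scaffold for iron-sulfur cluster assembly, read 9.34, 9.49 and 9.47 under CR and 6.60, 6.90 and 6.48 under RM (6.83-fold higher, adjusted p = 3.69e-06). The mitochondrial iron carrier MRS4 and the iron regulator AFT2 were 4.51-fold and 3.36-fold higher, whereas AFT1 differed by 0.05 log2 units and FIT2, a cell wall protein for siderophore iron, was 3.60-fold lower. Of 26 phosphate genes, 6 (23.1%) were higher and 2 lower (median 0.28). VTC2 and VTC3 of the polyphosphate polymerase and the cyclin PHO80 were 3.97-fold, 2.42-fold and 3.95-fold higher, and the polyphosphatase PPX1 was 2.97-fold lower. Copper genes had 3 of 17 lower (17.6%, beside 13.1% of all genes) and 0 higher. The lower ones were the transporter CTR1 (4.06-fold), the metallothionein CUP1-1 and the copper chaperone COX17 (both 3.25-fold). CUP1-1 has a near-identical neighbour, CUP1-2, that its probe set may also read.

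Of 51 cell wall genes, 20 (39.2%, beside 13.1% of all genes) were lower under CR, 3 were higher and 28 were not called (median -0.79). PIR3 was 15.5-fold lower (adjusted p = 5.34e-07), GAS5, which elongates glucan chains, 11.9-fold, PST1 9.53-fold and the glucanase EXG1 8.70-fold. Lipid genes were mixed. Fatty acid and phospholipid synthesis gave 8 higher (19.5%) and 5 lower (12.2%) of 41, beside 12.7% and 13.1% of all genes. The acyltransferase GPT2 was 6.07-fold higher, the phospholipid regulators INO4 and OPI1 3.77-fold and 3.20-fold higher and the phosphatidate phosphatase PAH1 2.85-fold lower. Ergosterol synthesis gave 3 higher and 3 lower of 33 (9.09% each), with ERG11, the target of azole drugs, 4.94-fold lower and the sterol acyltransferase ARE2 3.53-fold higher. Peroxisome and beta-oxidation genes gave 9 higher (17.0%) and 2 lower (3.77%) of 53. Their fatty acid regulator OAF1 was 2.78-fold higher and INP2, which carries peroxisomes into the bud, 3.17-fold higher. Secretory pathway genes gave 5 higher (9.09%) and 3 lower (5.45%) of 55.

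Genes of the cell cycle, mating, meiosis, NAD metabolism and histones had calls in both directions. Over all genes, 12.7% were higher and 13.1% lower. Cell cycle and DNA replication gave 6 each of 60, with the daughter-cell repressor ASH1 9.90-fold and its activator SWI5 4.16-fold lower, and the forkhead factor FKH1 5.23-fold higher. Meiosis and sporulation gave 12 higher (15.8%) and 11 lower (14.5%) of 76, near the shares over all genes. In the mating list 9 were lower (19.6%) and 6 higher (13.0%) of 46, including the agglutinin AGA2 at 5.29-fold lower. The number lower was 5 without CR replicate 1, RM replicate 1 or RM replicate 3. Sirtuin and NAD genes gave 5 higher (17.2%) and 1 lower (3.45%) of 29. Among them were the deacetylase HST1 (2.23-fold higher) and BNA7 of NAD synthesis (2.89-fold higher). Of 16 histone genes and regulators, 4 were higher and 2 lower. HIR1 and HIR2, which repress histone genes, were 4.42-fold and 3.29-fold higher and the histone gene HTA2 2.95-fold lower.

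Pairs of paralogues or of genes with like function were described by the calls of their members. PDC1 was paired with both PDC5 and PDC6. Of 62 measured pairs, 13 were lower in both members, 0 were higher in both, 31 had 1 member called, 15 had neither, and 3 were called in opposite directions. The pairs were made of list genes, of which 23.0% were lower and 9.45% higher, beside 13.1% and 12.7% of all genes. Among the 13, the call was lost without some single arrays for ENO2, SSA2 and GPD1. The opposite pairs were OYE2 and OYE3, MSN2 and MSN4, and the asparagine synthetases ASN1 and ASN2. OYE2 read 4.61, 4.77 and 4.76 under CR and 6.58, 6.82 and 6.30 under RM, the reverse of OYE3. ASN1 stood at -1.48 ± 0.52 log2 units (adjusted p = 0.0341 in limma, and 0.064 to 0.0896 when any of the 6 arrays was left out) and ASN2 at 1.26 ± 0.13 (adjusted p = 5.35e-05). Standard deviations for ASN1 were 0.095 in CR, 0.17 in RM and 1.32 in NR, and all of them entered its SE. Among pairs with a single call, GPX2 and TRR1 had partners near 0 or below: GPX1 at -0.26 and the mitochondrial TRR2 at -0.63 log2 units. Among iron genes, ISU1, MRS3, AFT1 and MMT1 were not called while ISU2, MRS4, AFT2 and MMT2 were. A single call need not set partners apart. PYC2 and COX5A, at -0.82 and -0.80 log2 units, missed only the 2-fold limit (adjusted p = 0.0033 for both in limma). Their called partners PYC1 and COX5B were lower as well, at -1.10 and -1.57 log2 units. The difference between partners was not itself tested. The plot of pairs gives each member's difference with its 95% interval.

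**Figure D4:**
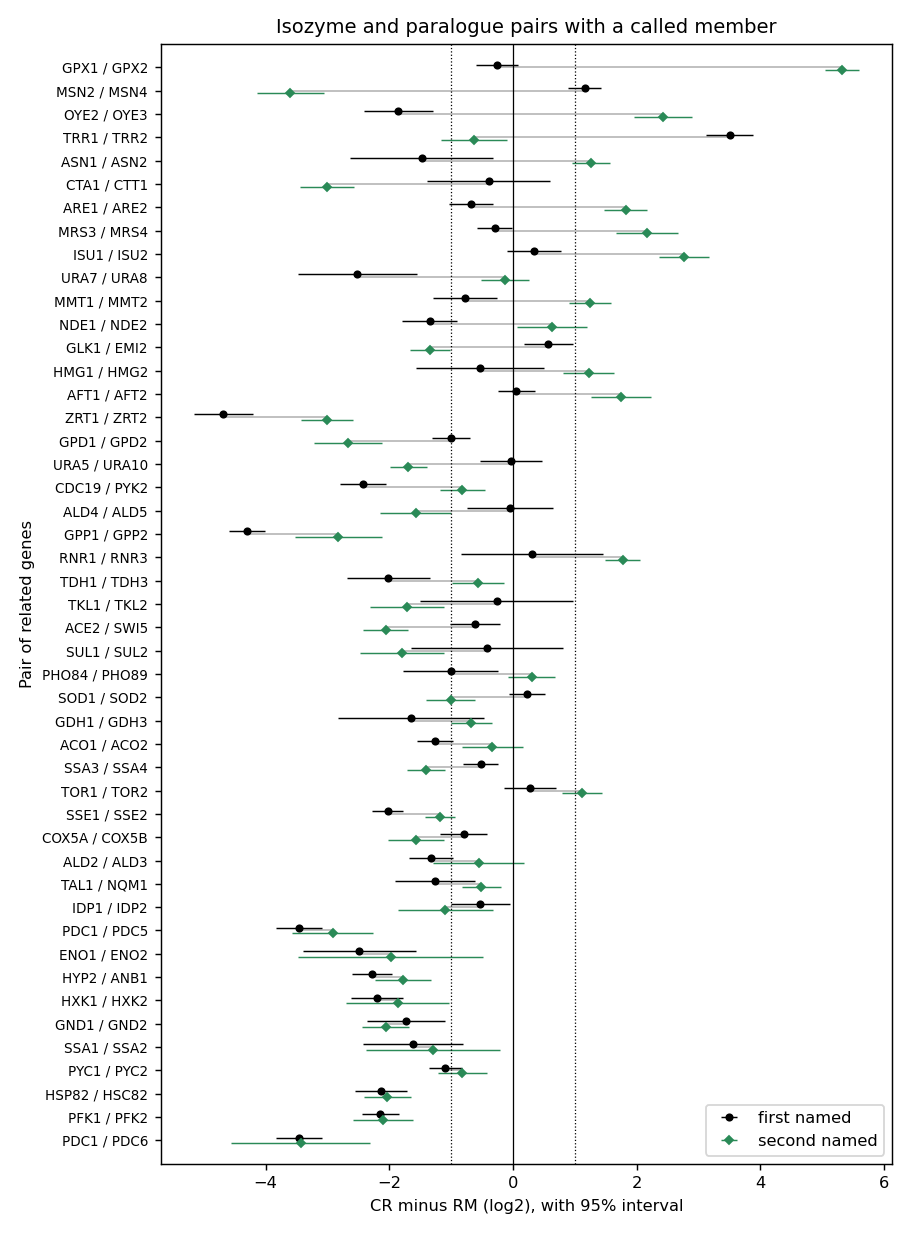
CR minus RM difference (log2, horizontal axis) of both members of each pair with a called member, the first named as black circles and the second as green diamonds, with 95% intervals from limma; dotted lines mark 2-fold. Pairs are ordered by the distance between members, with GPX1 and GPX2 at the top and the 3 oppositely called pairs, MSN2 with MSN4, OYE2 with OYE3 and ASN1 with ASN2, close below.

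In 22 called genes the treatments lay on opposite sides of NR, each by 2-fold or more. In 19 of them CR was the lower group (2.55% of the 745 called lower) and in 3 the higher (0.417% of 720). Such genes are at least 4-fold apart between treatments, and calls of that size already ran 206 lower to 65 higher. YDL218W read 7.5, 7.51 and 7.65 under CR, 9.79, 9.81 and 9.68 in NR, and 11.88, 12.22 and 11.68 under RM, so the groups were well apart and the treatments differed by 20.7-fold (adjusted p = 2.3e-07). RPL38, RPS14B, GAS5, CTT1 and ATG41 had the same order. Of the 22, 17 kept the 2-fold distance on both sides when NR replicate 3 was left out. RTN2, the spore wall gene DIT1 and 3 others did not: RM lay 0.81 log2 units above NR for RTN2 and 0.97 for DIT1. SWI1 and CNM67 had the reverse order, with NR at 6.92, 7.05 and 6.88 for SWI1. Of the 19, 3 were open reading frames of the Ty3 retrotransposon, YGR109W-A, YGR109W-B and YIL082W-A, chosen for mention after their values were seen. YGR109W-A averaged 6.95 under CR, 8.52 in NR and 10.56 under RM (12.2-fold between treatments). YGR109W-B and YIL082W-A did not keep the 2-fold distance without NR replicate 3, with CR at -0.89 and -0.75 log2 units from NR. Ty3 copies are near-identical, so these 3 probe sets may read the same transcripts. Because both distances use the NR arrays, each order is a description.

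Calls were unevenly spread over signal level. Genes were ranked by their mean level in NR, which is no part of the CR to RM difference, and cut into 10 equal classes. In the highest class, 202 genes (35.6%) were lower under CR and 23 (4.06%) higher, with a median of -0.54 log2 units. The class next to it gave 122 lower (21.5%) and 63 higher (11.1%), and the lowest class 41 lower (7.23%) and 63 higher (11.1%). Ribosomal proteins supplied 62 of the 202. Without them the highest class held 493 genes, of which 140 (28.4%) were lower and 23 higher, with a median of -0.35. Coding length went only weakly with the CR minus RM difference (Spearman correlation 0.087 over 5646 genes). The median length was 1431 bases for genes higher under CR, 1014 for genes lower (1134 without ribosomal proteins) and 1224 over all. The longest of 5 equal length classes had 17.4% higher and 8.24% lower. The second shortest class had 9.47% higher and 20.2% lower, and the shortest 11.4% and 13.2%. The glycolytic and ribosomal lists belong to the well expressed end, and the part of level and length in the results was not tested.

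**Figure D5:**
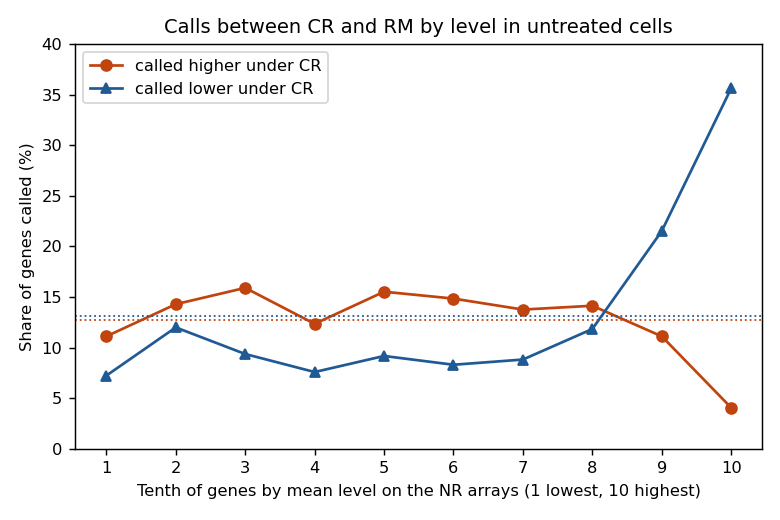
Share of genes (percent) called higher and lower under CR than under RM in each of 10 equal classes of genes by mean NR level, from the lowest (1) to the highest (10); dotted lines mark the shares over all genes. The share lower rises to 35.6% in the highest class, where the share higher is 4.06%.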

How the data were processed

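The authors deposited log2 signal values for 9 arrays and a table of signed fold changes with p-values for each pair of groups. Per the submitters' processing notes, RMA and Transcriptome Analysis Console 2.0 were used, and their settings are not given in the sources used here. Differences of group means equalled the log2 of the deposited folds within 1e-08 in all 5716 probe sets. The signed fold holds minus the inverse where the ratio is below 1, per the authors' deposited table. The number of arrays limits precision.

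The first probe set listed in the value table stood for each gene (47 genes had several). RefSeq R64 names matched 5646 genes, and 21 kept the file's names. limma 3.58.1 in R 4.3.3 was fitted to the log2 values of all 9 arrays in 3 groups, with 6 residual and 3.27 prior degrees of freedom, and p-values were Benjamini-Hochberg adjusted over 5667 genes. The called rule was adjusted p under 0.05 and 2-fold. On simulated arrays of 5667 genes for CR against RM, 50 genes were changed at each fold. The call rule found 38% of those changed 2-fold, 90% at 3-fold and 98% at 4-fold. At 2-fold, 70% had an adjusted p under 0.05, and the fold limit removed others. In the data 3177 genes had an adjusted p under 0.05. With so many fewer changed genes the simulated adjustment was stricter, so these shares are not the sensitivity in the data. Same-numbered CR and RM arrays deviated together at correlations of only 0.0236, -0.00876 and 0.0250, so the numbers were not treated as pairs.

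Named genes were the 12 largest calls in each direction, up to 4 called members of each list, both members of pairs with a call, and 24 regulators, plus a few genes marked as chosen after their values were seen or given as members that were not called. The 12 were drawn only from called genes whose CR and RM arrays did not overlap. The 44 lists, the pairs and the comparison were chosen with earlier results of these data known, and lists are described by counts and medians. The lists leaned lower more than the remaining genes did. Of 1703 measured genes in at least 1 list, 161 (9.45%) were higher and 391 (23.0%) lower under CR. Of 3964 genes in no list, 559 (14.1%) were higher and 354 (8.93%) lower.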

Additional observations from a re-analysis of the deposited data

How the results depend on the processing

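The count of 1465 called genes moved most with the fold limit: 3177 genes (1683 higher, 1494 lower) with no limit, 2609 (1349 and 1260) at 1.5-fold, and 520 (192 and 328) at 3-fold. With the replicate number as a block, 1471 were called (720 higher, 751 lower), and 1488 were called from the CR and RM arrays alone. The authors' deposited table gave 1395 at 2-fold with its own p-values, and 1318 after Benjamini-Hochberg adjustment of them. Leaving out single replicates gave 1373 to 1513 calls. Median centring gave 1444 calls and 75th percentile centring 1431, with fewer higher (639 and 604) than lower (805 and 827). Quantile normalization of the values again gave 1383 calls, with more higher (724) than lower (659), and shared 1311 of the 1465. The balance of higher and lower calls therefore moved with the scaling. No gene called in both ways of processing changed direction under any alternative run. Among the lists, aminoacyl-tRNA synthetases lower went from 3 to 5 with the CR and RM arrays alone, with median centring, with 75th percentile centring and, in an alternative chosen after seeing the data, without NR replicate 3, and ranged from 2 to 7 over single replicates left out. With 75th percentile centring, autophagy higher was 5 and meiosis higher 7. Over single replicates left out, mitochondrial ribosomal proteins higher ranged from 3 to 5, purine synthesis lower from 2 to 7 and mating lower from 5 to 11. Without NR replicate 3, 1487 genes were called, and the other list counts that moved were fermentation lower (12), gluconeogenesis lower (7), ribosome biogenesis lower (38), nitrogen catabolite repression higher (5), cell wall lower (21) and mating lower (11). Of 212 named called genes, 18 lost the call and 0 reversed in at least 1 of 12 alternatives (the block, the CR and RM arrays alone, both centrings, the mean over probe sets and arrays left out); other fold limits are not among these, and a 3-fold limit drops every gene under it. The comparison of promoter motifs was not run, since no promoter sequence was used here.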

Other observations

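Several chromatin and cell division complexes, looked at after SWI1 and RSC3 had been seen among the largest differences, were higher under CR more often than lower. Of 115 measured genes of SWI/SNF, RSC, INO80 and SWR1, SAGA and NuA4, Mediator and the anaphase-promoting complex, 28 (24.3%) were higher and 4 lower under CR than under RM, beside 12.7% and 13.1% over all genes, with a median of 0.40 log2 units. These lists were chosen after values were seen, so the counts are a description.

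The anaphase-promoting complex, the ubiquitin ligase that ends mitosis, had 6 of 16 genes higher and 0 lower, led by MND2 (6.41-fold) and CDC23 (5.36-fold). SAGA and NuA4, which acetylate histones, had 8 of 27 higher and 1 lower, with EAF1, the platform of NuA4, 5.50-fold higher. INO80 and SWR1, which handle the histone variant H2A.Z, had 5 of 23 higher and 0 lower, including YAF9 (3.14-fold) and the SWR1 ATPase gene (2.76-fold). In SWI/SNF, 3 of 12 were higher and 1 lower, with the ATPase SNF2 2.50-fold higher and ARP9 2.02-fold lower. RSC had 4 of 16 higher and 2 lower. Mediator was below the others, with 2 of 24 higher and 1 lower, although CSE2 was 6.51-fold higher.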
